A study of Homo sapiens with 12 samples.

Results

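The genes described here are 31 transcriptional targets of p53, chosen by name from a fixed list out of the 35984 genes of the deposited count table. All 31 were present in the table, and all 31 passed the filter on low counts. They were measured by RNA sequencing in HepG2, an established human hepatoma cell line that carries wild-type p53. The 4 groups of 3 libraries each were DKD cells with TNFα, DKD cells untreated, CTL cells with TNFα and CTL cells untreated. DKD (double knock-down) cells stably carry shRNAs that target the macroH2A1 and macroH2A2 transcripts, which encode forms of histone H2A extended by a macrodomain, and CTL cells carry a control shRNA, in both cases from retroviral vectors. TNFα, an inflammatory cytokine, was given at 20 ng/mL for 24 hours, untreated cells received its carrier, and all cells had first been kept overnight in 0.5% serum. The labels do not say whether a line was a pool or a clone of transduced cells, so a difference between the lines and an effect of the knock-down cannot be told apart. Nor do they state that a group's libraries were grown separately, so the p-values rest on a spread among libraries that may be no more than technical. In bulk RNA, fewer cells that express a gene and less RNA per cell cannot be told apart.

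p53 is a transcription factor that is kept low by the ubiquitin ligase MDM2 and is stabilised by DNA damage and other stresses. It binds a pair of short half-sites in DNA and raises genes that halt the cell cycle, repair DNA, trigger apoptosis or adjust metabolism, as well as MDM2 itself, which closes a feedback loop. Hepatocytes use the pathway in the response to genotoxic injury, and most of the genes below also have other activators.

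Library totals lay between 30955080 and 42094144 estimated counts, so that 1 count was worth 0.0238 to 0.0320 CPM (the standard count unit scaled to library size, here with TMM factors). The targeted genes were low in the knock-down: MACROH2A1 stood at 20.7% of the control level with TNFα and 19.5% without, and MACROH2A2 at 8.55% and 8.83%. All 10 hepatocyte markers checked were present, with a summed level of 21016 to 27743 CPM in DKD cells with TNFα, 28005 to 41543 CPM in untreated DKD cells, 17774 to 19695 CPM in CTL cells with TNFα and 22317 to 24076 CPM in untreated CTL cells. Of 16 markers of blood, endothelial, mesenchymal and bile duct cells, CD3E had no count, and the endothelial genes VWF and CDH5 reached at most 0.0489 and 0.0547 CPM. PECAM1, also endothelial, had 1.28 to 2.43 CPM and the blood cell marker CD68 4.50 to 14.4 CPM over the libraries. LYZ, EPCAM, SOX9 and ACTA2 were abundant in these cells. The summed level of these 16 markers was 1366 to 1652 CPM in DKD cells with TNFα, 750.4 to 888.4 CPM in untreated DKD cells, 1294 to 1450 CPM in CTL cells with TNFα and 662 to 717 CPM in untreated CTL cells, mostly from LYZ. Both marker sums thus moved with the groups, and their part in the results below was not tested. Libraries with the same number deviated together, so results are also given with the number as a block in the model.

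Promoter windows from RefSeq (build GRCh38.p14), from 250 bases before to 50 bases after a gene's start, were at hand for 25 of the 31 genes, in 35 windows. They were searched on both strands for the p53 half-site, a decamer of purines, a C, A or T bases, a G and pyrimidines. An exact match lay in 6 of the 35 windows (17.1%), those of AEN, DDB2, FDXR, PLK2, RPS27L and SESN1, against 6.63% of all 35116 windows. In the window of DDB2, which encodes a damage-recognition subunit for nucleotide excision repair, a pair of half-sites was separated by 1 base. Such a pair with 0 to 13 bases in between was found in 10 of all windows (0.0285%). These matches are descriptions of letters and not of binding. They are shown because they are the recognition sequence that defines the pathway, with the half-sites in capitals (for DDB2 the capitals also take in the 1 base between its half-sites):

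DDB2, chr11:47214975-47215003, plus strand: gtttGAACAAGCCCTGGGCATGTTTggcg

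SESN1, chr6:109009018-109009047, minus strand: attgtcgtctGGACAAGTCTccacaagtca

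FDXR, chr17:74872986-74873015, minus strand: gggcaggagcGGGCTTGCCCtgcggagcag

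AEN, chr15:88621296-88621325, plus strand: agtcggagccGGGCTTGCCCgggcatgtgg

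PLK2, chr5:58460199-58460228, minus strand: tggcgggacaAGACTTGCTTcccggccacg

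RPS27L, chr15:63157517-63157546, minus strand: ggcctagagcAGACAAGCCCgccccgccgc

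Another motif, a pair of CATG cores with 6 bases between them, was searched as well. It matched 1 of the 35 windows (2.86%), that of TRIAP1, against 0.373% of all windows. The match overlaps none of the half-sites above and lies after the start of the gene, with the motif in capitals:

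TRIAP1, chr12:120446336-120446357, minus strand: gaggCATGCACGGACATGaagc

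The 250 bases before the start are printed for the genes on which the results below turn, SPATA18 and CCNG1 between the lines and TRIAP1 and GDF15 with TNFα. None of these stretches held either motif, so they are in lower case throughout, which says only that those letters are not in this window.

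SPATA18, chr4:52051054-52051303, plus strand: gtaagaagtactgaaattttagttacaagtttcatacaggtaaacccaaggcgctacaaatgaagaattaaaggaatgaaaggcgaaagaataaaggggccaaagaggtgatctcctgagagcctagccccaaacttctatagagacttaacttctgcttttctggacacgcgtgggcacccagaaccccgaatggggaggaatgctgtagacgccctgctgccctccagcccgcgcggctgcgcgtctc

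CCNG1, chr5:163437321-163437570, plus strand: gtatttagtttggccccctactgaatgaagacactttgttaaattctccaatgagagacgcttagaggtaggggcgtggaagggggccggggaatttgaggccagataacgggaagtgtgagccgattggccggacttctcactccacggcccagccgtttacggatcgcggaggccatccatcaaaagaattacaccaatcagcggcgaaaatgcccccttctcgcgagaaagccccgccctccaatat

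TRIAP1, chr12:120446385-120446634, minus strand: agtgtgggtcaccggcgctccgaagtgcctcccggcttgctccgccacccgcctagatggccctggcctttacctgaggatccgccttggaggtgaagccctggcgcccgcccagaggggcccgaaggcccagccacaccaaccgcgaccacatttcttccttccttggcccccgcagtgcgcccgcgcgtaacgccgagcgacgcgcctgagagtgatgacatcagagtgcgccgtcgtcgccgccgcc

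GDF15, chr19:18385908-18386157, plus strand: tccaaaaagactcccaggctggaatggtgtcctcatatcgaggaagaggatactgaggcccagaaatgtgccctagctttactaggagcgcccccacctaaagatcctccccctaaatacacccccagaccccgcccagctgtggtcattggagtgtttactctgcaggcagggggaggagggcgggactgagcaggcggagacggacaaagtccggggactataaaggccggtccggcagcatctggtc

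The first comparison asked how the lines differed when both had received TNFα. SPATA18 and CCNG1 were higher in DKD than in CTL cells, and 26 of the 31 genes had a log2 fold change above 0. SPATA18 (chromosome 4, 52051331 to 52097292, plus strand in GRCh38) encodes Mieap, which takes part in the quality control of mitochondria. It had 62.0, 50.4 and 42.9 CPM in DKD cells with TNFα, against 27.6, 27.6 and 24.1 CPM in CTL cells with TNFα. The groups did not overlap, and the lowest DKD library was more abundant in this transcript than any CTL library. The log2 fold change was 0.97 (SE 0.14), with an adjusted p of 0.00162 by edgeR's quasi-likelihood test with Benjamini-Hochberg adjustment over all 16118 genes tested, as for each adjusted p below. CCNG1 (chromosome 5, 163437569 to 163446151, plus strand), the gene of cyclin G1, which recruits a phosphatase to MDM2, had 323, 275 and 238 CPM in DKD cells with TNFα, against 202, 179 and 152 CPM in CTL cells with TNFα. These groups did not overlap either, and the log2 fold change was 0.65 (SE 0.15, adjusted p = 0.0316). The call of CCNG1 was lost without the DKD library numbered 1 or 2 or the CTL library numbered 2 or 3 of the TNFα groups (adjusted p = 0.115, 0.0766, 0.101 and 0.131) and with both DKD libraries numbered 1 left out (0.0524), and that of SPATA18 held in all 20 alternatives run (log2 fold change 0.82 to 1.08).

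Those 2 calls were 6.45% of the members, against 6.24% of all genes tested (3.94% higher and 2.3% lower), which is close to the background. With the replicate number as a block, 8 members were higher and 2 lower in DKD cells with TNFα (32.3% of the members, against 19.4% of all genes, 10.6% higher and 8.79% lower). BTG2, an antiproliferative gene, had 41.0, 34.7 and 27.7 CPM in DKD cells and 22.5, 25.0 and 19.3 CPM in CTL cells, with no overlap and a difference of 0.63 on the log2 scale (SE 0.19). It missed the threshold without the block (adjusted p = 0.0807) and passed with it (0.00257). The same was seen for 5 metabolic or death-related genes. CMBL, which encodes a hydrolase (0.59, adjusted p = 0.0524 and 0.00146 with the block), and FDXR, the reductase that feeds electrons to mitochondrial P450 enzymes (0.32, 0.0547 and 0.0194), lay above CTL in every DKD library. SESN1, a stress-induced inhibitor of mTORC1 signalling, had 42.6, 31.3 and 24.1 CPM in DKD cells, against 24.3, 22.5 and 16.4 CPM in CTL cells, where the DKD library numbered 3 fell within the CTL range. Its log2 fold change of 0.63 missed the threshold without the block and passed with it (adjusted p = 0.119 and 0.00151), and it also passed by DESeq2. TIGAR, which lowers glycolytic flux (0.37, adjusted p = 0.482 and 0.0321), and EDA2R, a death receptor of the TNF receptor family (0.37, 0.454 and 0.0446), also passed only with the block.

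The members lower in DKD cells were CDKN1A and PLK3, and only with the block. CDKN1A (chromosome 6, 36676460 to 36687339, plus strand) encodes p21, the cyclin-dependent kinase inhibitor through which p53 arrests the cell cycle. It had 103, 103 and 79.4 CPM in DKD cells with TNFα, against 114, 137 and 106 CPM in CTL cells with TNFα. All 3 DKD libraries lay below all 3 CTL libraries, and the log2 fold change was -0.32 (SE 0.20, adjusted p = 0.470, and 0.0208 with the block). PLK3, a stress-responsive kinase, differed by -0.42 on the log2 scale (SE 0.31, adjusted p = 0.582, and 0.0110 with the block), and its groups overlapped. In all, 8 members lay wholly above CTL (background 13.2% of all genes) and 1 wholly below (background 12.1%).

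**Figure D1:**
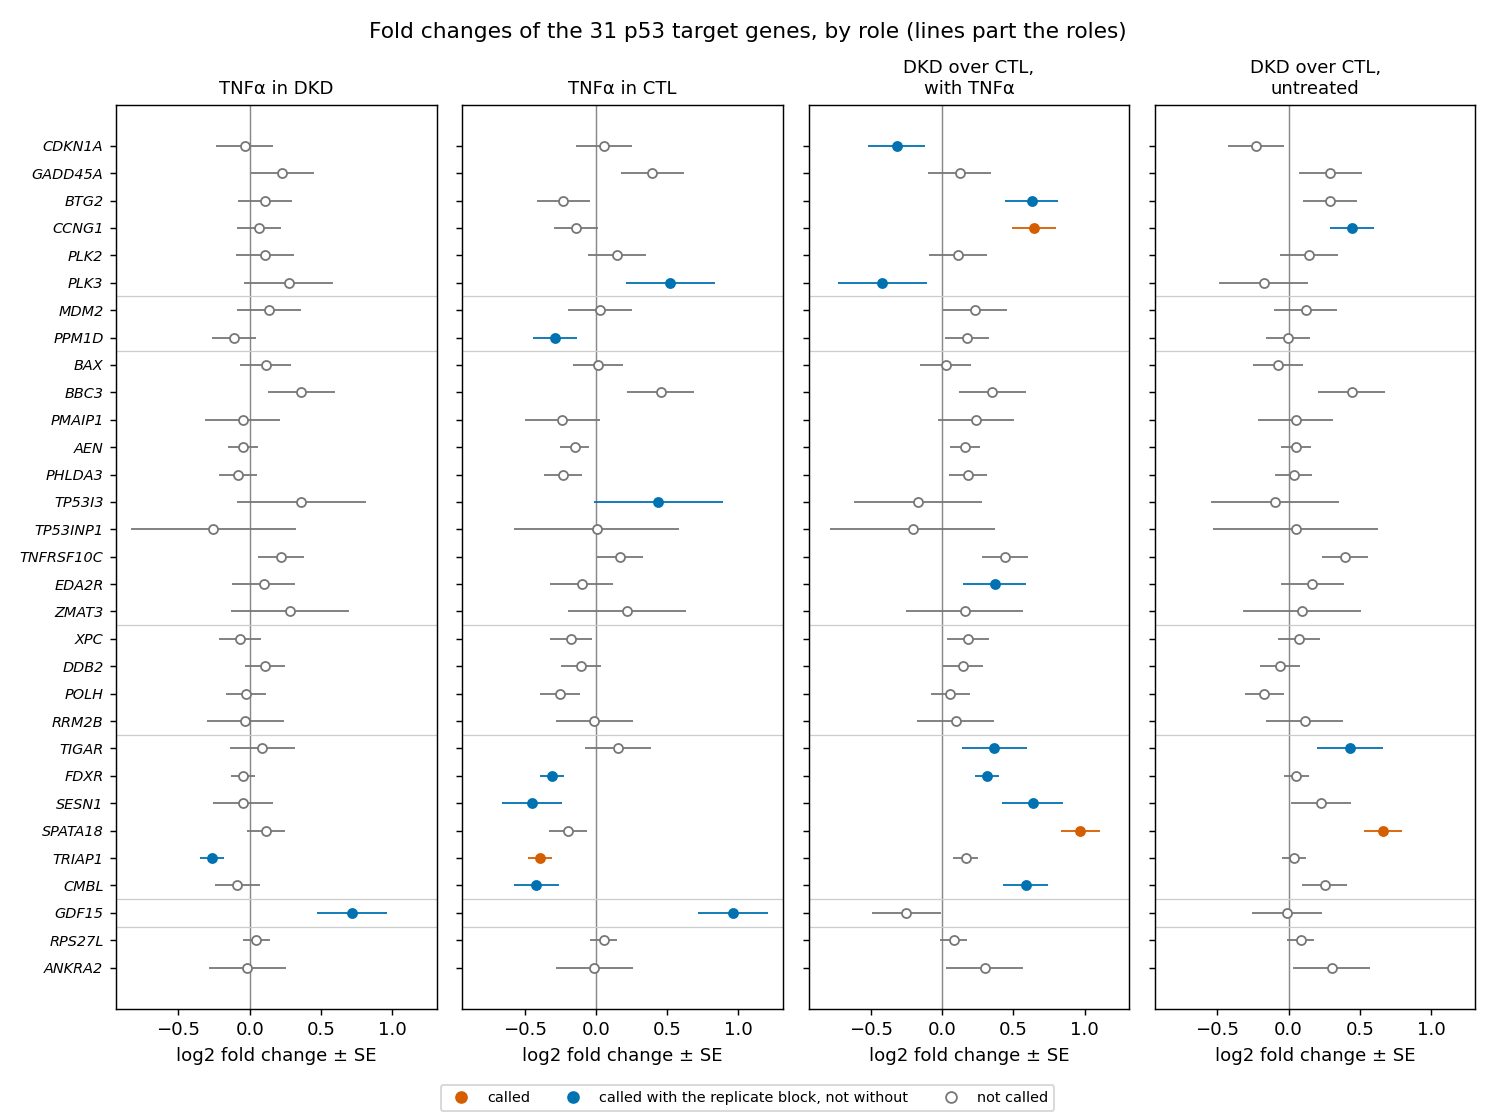
log2 fold changes (points) with standard errors (bars) of the 31 p53 target genes in 4 comparisons, TNFα over untreated in DKD and in CTL cells and DKD over CTL cells with TNFα and untreated, orange where called, blue where called with the replicate block and not without it, and open where neither, ordered by role (cell cycle arrest, feedback on p53, cell death, DNA repair, metabolism and mitochondria, secreted factor, other). SPATA18 and CCNG1 stand furthest to the right with TNFα at 0.97 and 0.65, and 26 of the 31 genes are above 0 there.

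By role, in that comparison, 1 of 6 cell cycle genes was called, 1 of 6 metabolic and mitochondrial genes (16.7% each, against 6.24% of all genes), and none of the 10 death-related genes, the 4 repair genes or the pair of feedback genes MDM2 and PPM1D. No test of a role was run. With the block the metabolic and mitochondrial genes gave 5 of 6 called higher (83.3%, against 10.6% of all genes), and TRIAP1 was the one not called (0.16, adjusted p = 0.355, and 0.0816 with the block). The median log2 fold change of these 6 genes was 0.48 without the block. With the block the 6 cell cycle genes gave 2 higher and 2 lower (66.7%, against 19.4% of all genes), and the 10 death-related genes 1 higher (10%). Such shares depend on how genes were assigned to roles. TP53I3, an oxidoreductase gene counted as death-related, had a log2 fold change of -0.17. The median over all 31 members was 0.17, against 0.00155 over all genes tested. That median was 0.08 when both DKD libraries numbered 1 were left out, with 23 members above 0, and 0.07 without DKD TNFα library 1 alone, with 22 above 0. Without CTL TNFα library 3 it was 0.09, and without DKD TNFα library 3 it was 0.27. The repair genes XPC, DDB2, POLH and RRM2B had log2 fold changes between 0.06 and 0.18, and adjusted p from 0.621 to 0.924. Among the death genes, BBC3 (PUMA, an activator of mitochondrial apoptosis), TNFRSF10C (a decoy receptor for TRAIL) and PHLDA3 (an inhibitor of AKT) lay above CTL in every DKD library, at 0.35, 0.44 and 0.18, without passing the test with or without the block (adjusted p of at least 0.0746). BAX, the pore-forming effector, had 176, 124 and 133 CPM in DKD cells and 154, 133 and 139 CPM in CTL cells, with overlapping groups (0.02, SE 0.18).

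The untreated lines gave the same comparison without the cytokine. SPATA18 was again higher, with 52.1, 48.2 and 43.3 CPM in untreated DKD cells, against 29.9, 32.6 and 28.2 CPM in untreated CTL cells. The groups did not overlap, and the log2 fold change was 0.66 (SE 0.13, adjusted p = 0.0158). It was the 1 member called, 3.23% of the members against 4.98% of all genes (3.13% higher and 1.86% lower). The call was lost without DKD untreated library 2 (adjusted p = 0.0561), CTL untreated library 1 (0.0629) or CTL untreated library 3 (0.0833). CCNG1 had 297, 274 and 228 CPM in untreated DKD cells and 229, 184 and 174 CPM in untreated CTL cells. There the lowest DKD library was just under the highest CTL library, and the log2 fold change of 0.44 (SE 0.15) missed the threshold without the block and passed with it (adjusted p = 0.155 and 4.26e-04), as it did by limma voom and in libraries numbered 2 and 3 alone. Of the alternatives run, TIGAR passed with the block only (0.43, adjusted p = 0.387 and 0.0159). These 3 were 9.68% of the members with the block, against 16.5% of all genes (9.17% higher and 7.31% lower). SPATA18 and TNFRSF10C lay wholly above CTL (2 members, background 11.3%) and no member wholly below (background 10.4%).

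CDKN1A had 102, 115 and 76.9 CPM in untreated DKD cells, against 113, 143 and 87.6 CPM in untreated CTL cells, groups that overlapped (log2 fold change -0.23, SE 0.20, adjusted p = 0.646, and 0.101 with the block). MDM2 (chromosome 12, 68808176 to 68850686, plus strand) had 569.9, 447 and 343 CPM in untreated DKD cells and 422, 473 and 357 CPM in untreated CTL cells. With TNFα it had 622, 508 and 363 CPM in DKD cells and 454, 479.8 and 341 CPM in CTL cells. The DKD and CTL libraries overlapped at both treatments, and the log2 fold changes were 0.12 and 0.23 (SE 0.22 each, adjusted p = 0.859 and 0.711). Of the 31 members, 23 had a log2 fold change above 0 between the untreated lines, with a median of 0.09 against 0.01 over all genes. That number was 18 without DKD untreated library 1 or without CTL untreated library 3, and the median was then 0.06 or 0.01.

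**Figure D2:**
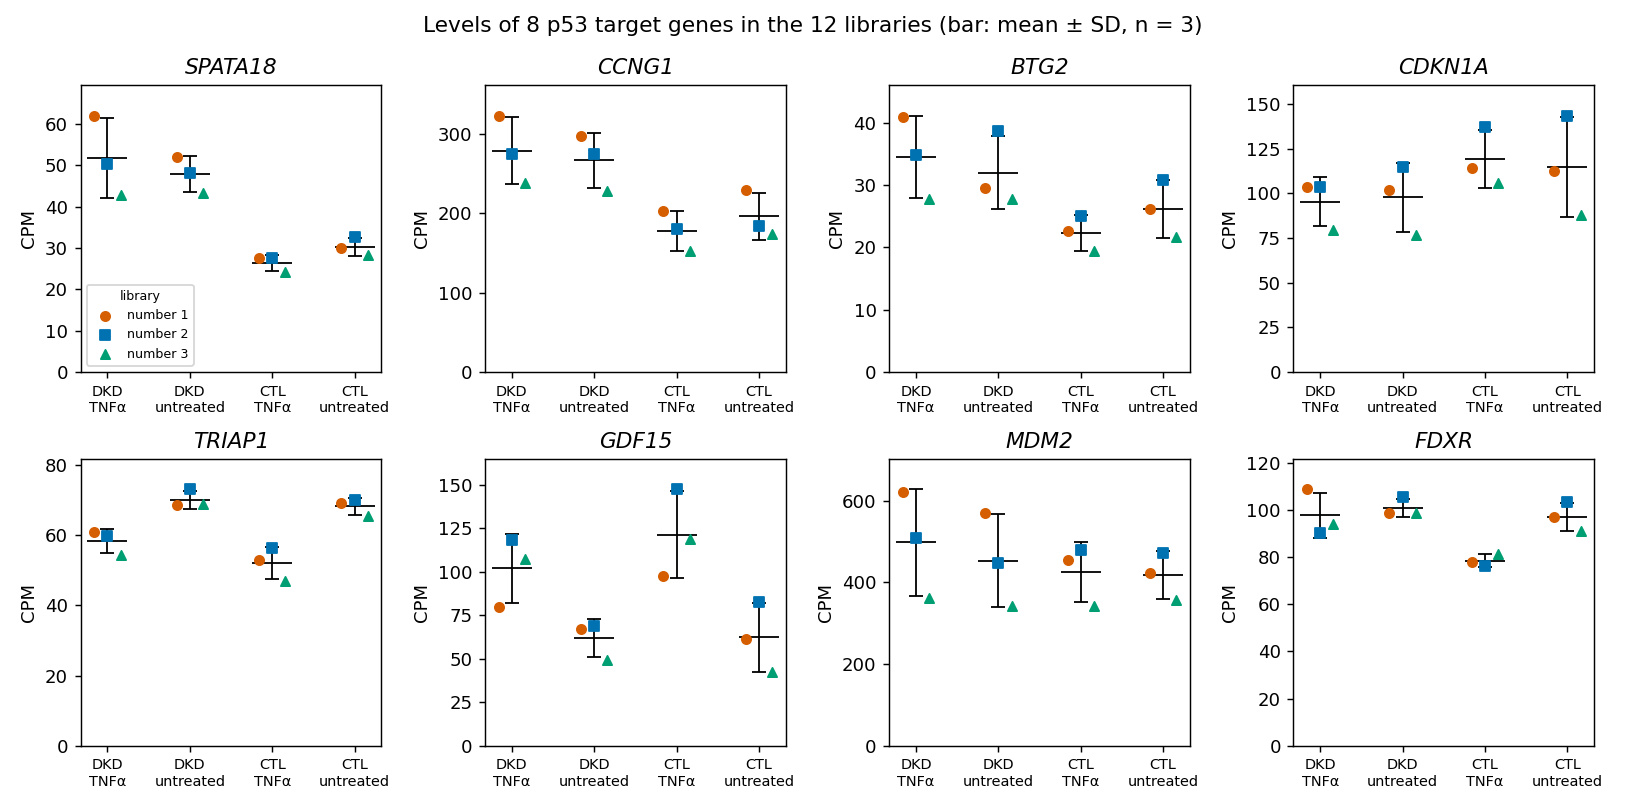
CPM of SPATA18, CCNG1, BTG2, CDKN1A, TRIAP1, GDF15, MDM2 and FDXR in each of the 12 libraries, with the symbol showing the library number and the black bars the mean ± SD of each group (n = 3). SPATA18 is higher in all 6 DKD libraries than in any CTL library, and TRIAP1 is lower with TNFα in both lines.

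The difference between the lines had the same sign with and without TNFα for most members. The comparisons share no library but come from one fit with one spread per gene. Across the 31 members the log2 fold changes had Pearson r = 0.82 and Spearman rho = 0.78, and across all 16118 genes r = 0.67 and rho = 0.69, where genes are not independent replicates. The sign was the same for 26 members (83.9%), against 78.2% of all genes. SPATA18, CCNG1, CMBL, SESN1 and BTG2, which had the highest log2 fold changes with TNFα, each had a larger difference there than untreated. Picking genes by their values with TNFα favours that outcome, so it is no sign that TNFα widened the difference. For TIGAR, BBC3 and GADD45A the difference was smaller with TNFα (0.37, 0.35 and 0.12) than untreated (0.43, 0.44 and 0.29). Whether TNFα altered the difference is the interaction, the TNFα effect in DKD cells minus that in CTL cells. No member passed it by edgeR with or without the block, by DESeq2 or by limma voom. By edgeR 0 of all 16118 genes passed it, with or without the block, so the lack of calls is not particular to the members. Its estimate was above 0 for 19 members and below 0 for 12 (61.3% above 0, against 49.7% of all genes). At an unadjusted p under 0.05 edgeR counted 0 members and 184 of all genes (1.14%). The interaction estimates were 0.31 (SE 0.19) for SPATA18, 0.40 (SE 0.30) for SESN1 and 0.26 (SE 0.12) for FDXR, so that differences of that size were not resolved.

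**Figure D3:**
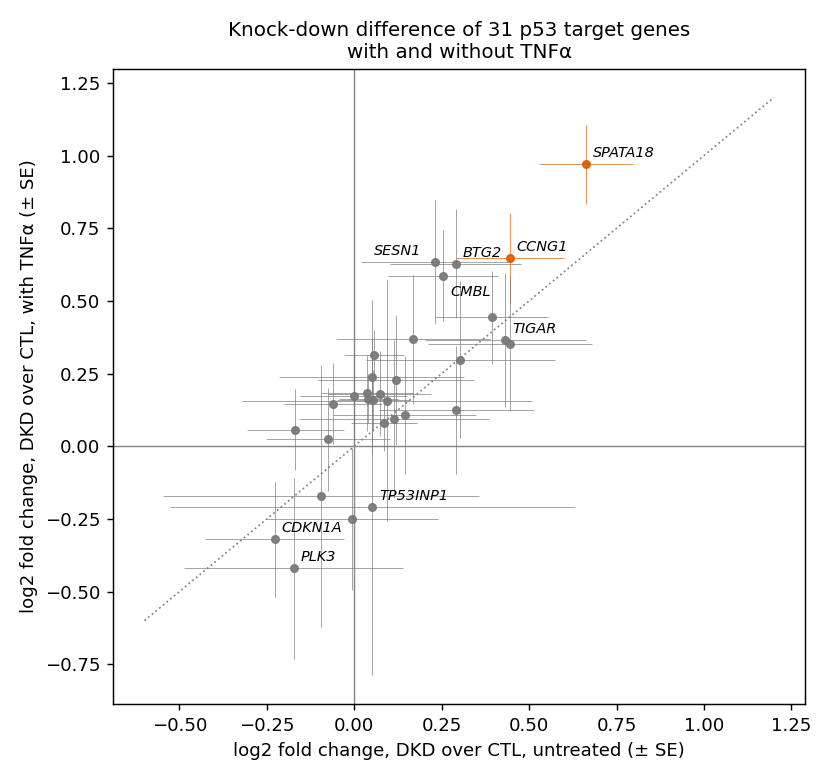
log2 fold change of DKD over CTL cells with TNFα (vertical axis) against the same without TNFα (horizontal axis) for the 31 genes, with standard errors; orange points are SPATA18 and CCNG1, which passed the test in at least 1 of the comparisons, and the dotted line marks equal values. Most points lie in the upper right (22 above 0 on both axes), and CDKN1A and PLK3 lie in the lower left.

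The response to TNFα was the second question. The cytokine acted in both lines, since all 6 NF-kB target genes used as a check rose in each. Among p53 targets in DKD cells, no member was called by edgeR, against 1.79% of all genes. At an unadjusted p under 0.05 edgeR gave 2 members (6.45%), against 10.1% of all genes. DESeq2 called 1 member and limma voom 2, for which the share of all genes is not given here. With the block, TRIAP1 fell and GDF15 rose (6.45% of the members, against 7.67% of all genes, 5.55% higher and 2.13% lower). In CTL cells 1 member was called, TRIAP1, which is 3.23% against 2.62% of all genes (1.9% higher and 0.726% lower). With the block 3 members rose and 5 fell in CTL cells, or 25.8% against 12.6% of all genes (7.94% higher and 4.7% lower).

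TRIAP1 (chromosome 12, 120443961 to 120446412, minus strand) encodes a small protein that carries phosphatidic acid within mitochondria and restrains apoptosis. It had 52.9, 56.2 and 47.0 CPM in CTL cells with TNFα, against 69.1, 70.1 and 65.4 CPM in untreated CTL cells. The groups were well apart, and the log2 fold change was -0.39 (SE 0.08, adjusted p = 0.0360, and 0.00228 with the block). In DKD cells it had 60.8, 59.6 and 54.5 CPM with TNFα, against 68.5, 73.0 and 68.8 CPM untreated. Those groups did not overlap either, and the log2 fold change of -0.27 (SE 0.08) missed the threshold without the block and passed with it (adjusted p = 0.217 and 0.0220), as it did by DESeq2 and limma voom. The call in CTL cells was lost when any 1 of 6 libraries was left out, with an adjusted p of 0.0575 to 0.150 (CTL untreated 1, 2 and 3, CTL TNFα 1 and 3, and DKD untreated 2), and with no filter on low counts (0.0655).

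GDF15 (chromosome 19, 18374731 to 18389176, plus strand) encodes a secreted stress cytokine of the TGF-beta family. It had 79.6, 118 and 107 CPM in DKD cells with TNFα, against 67.2, 68.9 and 49.5 CPM in untreated DKD cells. In CTL cells it had 97.3, 147 and 119 CPM with TNFα, against 61.5, 82.5 and 42.6 CPM untreated. In each line every TNFα library lay above every untreated library. The log2 fold change was 0.72 (SE 0.25) in DKD and 0.96 (SE 0.25) in CTL cells, and both missed the threshold without the block and passed with it (adjusted p = 0.269 and 0.0348 in DKD cells, 0.0740 and 0.00579 in CTL cells). GDF15 also passed by limma voom in both lines and by DESeq2 in CTL cells. The interaction for GDF15 was -0.24 (SE 0.35).

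The other members that passed with the block in CTL cells went both ways. FDXR had 78.0, 76.0 and 81.4 CPM with TNFα and 96.8, 103 and 91.2 CPM untreated, with no overlap (log2 fold change -0.31, SE 0.09, adjusted p = 0.0998 and 0.0312 with the block). SESN1 (-0.45, adjusted p = 0.385 and 0.0128) and CMBL (-0.42, 0.237 and 0.0150) were also lower in every TNFα library, and PPM1D, a phosphatase that switches off p53 signalling (-0.29, 0.462 and 0.0109), overlapped between the groups. PLK3 (0.52, adjusted p = 0.526 and 0.00722) and TP53I3, a quinone oxidoreductase linked to oxidative stress (0.44, 0.782 and 0.0407), were higher with the block, with overlapping groups. In CTL cells, the 3 members GADD45A, BBC3 and GDF15 lay wholly above the untreated libraries with TNFα (background 13.4%) and 5 wholly below, FDXR, SESN1, SPATA18, TRIAP1 and CMBL (background 11.7%). In DKD cells these numbers were 2, TNFRSF10C and GDF15, and 1, TRIAP1 (background 7.03% and 5.25%).

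CDKN1A and MDM2 did not pass for TNFα in either line, with or without the block. The log2 fold change of CDKN1A was -0.04 in DKD and 0.06 in CTL cells (SE 0.20 each), and that of MDM2 was 0.13 and 0.03 (SE 0.22 each). For the repair genes it lay between -0.07 and 0.11 in DKD and between -0.25 and -0.01 in CTL cells. The median over the 31 members was 0.06 in DKD cells (all genes -0.00815) and -0.01 in CTL cells (all genes 8.36e-04). Single libraries turned these medians. In DKD cells the median was -0.06 without DKD TNFα library 1 and -0.05 without DKD untreated library 3, with 9 of 31 members above 0 in each case, and 0.12 without DKD TNFα library 3, with 25 above 0. In CTL cells it was -0.22 without CTL untreated library 3 (7 above 0), -0.15 without CTL TNFα library 1 (10 above 0), -0.10 without CTL TNFα library 2 (11 above 0) and -0.09 without CTL untreated library 2 (12 above 0). It was 0.03 without CTL TNFα library 3 or CTL untreated library 1, with 17 above 0 in both.

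Many members also varied with the library number. In each of the 4 groups the library numbered 3 was the lowest of its group for 17 of the 31 members (54.8%), against 7.59% of all genes tested. They were CDKN1A, BTG2, CCNG1, MDM2, PPM1D, AEN, TP53INP1, EDA2R, ZMAT3, XPC, DDB2, POLH, RRM2B, TIGAR, SESN1, SPATA18 and ANKRA2. The library numbered 1 was the highest in all 4 groups for 13 members (41.9%), against 18.2% of all genes. The median member deviated from its group mean by -0.20, -0.19, -0.14 and -0.21 on the log2 scale in the libraries numbered 3 of DKD TNFα, DKD untreated, CTL TNFα and CTL untreated. In the libraries numbered 1 these medians were 0.20, 0.13, 0.08 and 0.08, while the median of all genes stayed between 0.00117 and 0.0146 in all 12 libraries. What the numbers stand for is not given in the sources used here.

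TP53INP1, which promotes p53-dependent death and autophagy, varied most within groups, with a standard deviation of 0.82 on the log2 scale. It had 117, 60.3 and 39.8 CPM in DKD cells with TNFα, 166, 59.3 and 33.8 CPM in untreated DKD cells, 106 (library 1), 89.8 and 54.1 CPM in CTL cells with TNFα and 126, 75.1 and 47.8 CPM in untreated CTL cells. ZMAT3, an RNA-binding growth suppressor, followed the same order in every group, at 125, 67.0 and 49.95 CPM in DKD cells with TNFα and 78.4, 62.5 and 45.4 CPM in untreated CTL cells. For TP53I3 the library numbered 1 was the lowest in all 4 groups, at 12.4 CPM against 40.5 and 34.3 CPM in untreated DKD cells. PLK3 and CMBL were also lowest there, and these 3 were 9.68% of the members, against 18.6% of all genes. TRIAP1 and FDXR varied least (0.09 each), and the median spread of the members was 0.27, against 0.24 for all genes.

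**Figure D4:**
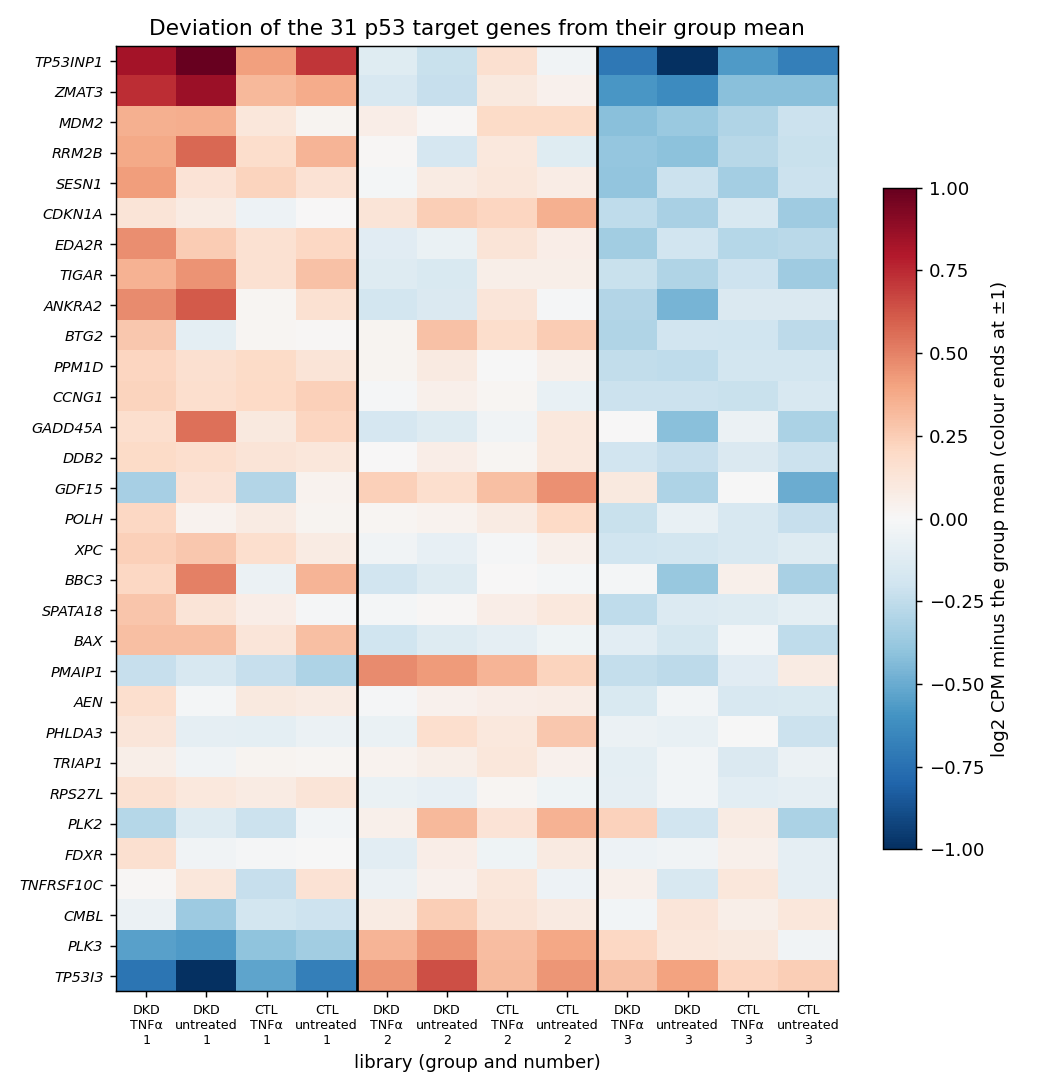
log2 CPM of the 31 genes minus the mean of their group (colour, red above and blue below, ending at ±1) in the 12 libraries, arranged by library number and then by group. The 4 columns numbered 3 are blue for most genes and 17 of 31 genes are lowest there in all 4 groups. TP53I3, PLK3 and CMBL are lowest in the columns numbered 1 (9.68% of the members, against 18.6% of all genes).

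Of 27 genes of the p53 family and its regulators, 26 were tested. Between the untreated lines 2 were lower in DKD cells and none higher, and with TNFα 1 was lower (with the block 3 lower and 1 higher, and 3 lower and 2 higher). These were 7.69% untreated and 3.85% with TNFα, against 4.98% and 6.24% of all genes, and with the block 15.4% and 19.2%, against 16.5% and 19.4%. CDKN2A, the locus of p16 and of ARF, which restrains MDM2, had 0.325, 0.649 and 0.729 CPM in DKD cells with TNFα, against 1.37, 2.69 and 2.88 CPM in CTL cells with TNFα. Untreated it had 0.219, 0.381 and 0.429 CPM in DKD cells, against 1.31, 1.54 and 1.46 CPM in CTL cells. The groups were well apart at both treatments although the level is low, with log2 fold changes of -2.02 (SE 0.37, adjusted p = 0.00798) and -2.05 (SE 0.39, adjusted p = 0.0110). TP73, a p53 paralog, was lower in untreated DKD cells (log2 fold change -0.92, SE 0.17, adjusted p = 0.00813), and with TNFα it missed the threshold without the block and passed with it (-0.61, adjusted p = 0.0558 and 0.00260). None of the 26 passed for TNFα by edgeR without the block (4 in DKD and 1 in CTL cells at an unadjusted p under 0.05, which 10.1% and 13.9% of all genes reached). With the block 7.69% of the 26 were called in each line, against 7.67% of all genes in DKD and 12.6% in CTL cells. Among them was CHEK2, a checkpoint kinase gene, which was lower with TNFα. Its log2 fold change was -0.32 in DKD cells (adjusted p = 0.448, and 0.0243 with the block). In CTL cells it was -0.41 (0.188 and 0.00683), with overlapping groups.

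A further list of 65 p53 targets, of which 59 were tested, gave few calls. Between the lines with TNFα 1 was higher and 1 lower (3.39% against 6.24% of all genes), and untreated 1 was lower (1.69% against 4.98%). STEAP3, a ferrireductase gene, was higher in DKD cells with TNFα (log2 fold change 1.004, SE 0.25, adjusted p = 0.0386). KITLG, the ligand of the receptor KIT, was lower both with TNFα (-0.99, SE 0.15, adjusted p = 0.00220) and without (-0.95, SE 0.15, adjusted p = 0.00309). In CTL cells TNFα raised 3 of the 59 (5.08%, against 1.9% of all genes called higher), KITLG (0.69, SE 0.14), INPP1 (0.68, SE 0.15), an inositol phosphatase gene, and the kinase gene VRK2 (1.55, SE 0.35), and in DKD cells none was called by edgeR (7 at an unadjusted p under 0.05, which 10.1% of all genes reached, and 6 or 10.2% higher with the block, against 5.55% of all genes). The death receptor gene FAS was called higher in DKD cells with the block and not without it, at 0.53 with TNFα (adjusted p = 0.212 and 0.00276) and 0.42 without (0.365 and 0.0167). With the block, 5 of the 59 were higher and 7 lower in DKD cells with TNFα (20.3%, against 19.4% of all genes). Untreated, 3 were higher and 7 lower with the block (16.9%, against 16.5% of all genes). The median of the 59 was 0.11 with TNFα and 0.09 without (0.00155 and 0.0106 over all genes).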

How the data were processed

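The values are estimated counts by gene symbol, which the authors deposited as whole numbers, 1 column for each library. The tools named in the submitters' processing notes are Salmon 0.14.0, CASAVA 1.7 and DESeq2, and the build is GRCh38. For the annotation, the strand setting and the step from transcripts to genes, nothing is given in the sources used here. Salmon divides reads among similar transcripts, so genes whose exons overlap another gene are less certain, among them TIGAR (42.6% of its exon bases in GENCODE 29), TNFRSF10C (26.0%), XPC (23.8%) and PHLDA3 (19.1%). A second deposited table of normalised values was not used.

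Sample titles gave each column its library. edgeR 4.0.16 in R 4.3.3 was fitted to all 12 libraries with 1 mean per group (8 residual degrees of freedom), TMM factors and filterByExpr (minimum count 10, minimum total 15), which left 16118 genes. A gene was called at a Benjamini-Hochberg adjusted p under 0.05. The SE is the log2 fold change divided by the square root of the quasi-likelihood F. The spread is set by n = 3 libraries per group, and chi-square of replicate counts, divided by its degrees of freedom, was 11.4 to 130.5, above counting noise in every pair. It reached 130.5 in untreated DKD cells and at most 35.0 in CTL cells. The fit was also run on simulated counts, drawn without any deviation shared by same-numbered libraries. That run therefore does not bear on the use of the block, and its outcome is not given here.

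The libraries of different groups share the numbers 1 to 3. Deviations from the group mean correlated between all same-numbered libraries of each compared pair (r = 0.193 to 0.695), so the numbers were taken to pair the libraries, although no label says what they mark, and the replicate block is given beside results whose call it changes. Alternatives were this block, DESeq2 1.42.0, limma 3.58.1 voom with quality weights, RLE size factors, no filter, only the 2 groups compared, and libraries left out. Named genes were CDKN1A, MDM2, GDF15, a further gene that is not reported here, every called member, and up to 4 called genes per other list and contrast; others named were chosen after their values were seen. The members and lists were chosen with earlier results of these data known. Promoter sequences are from RefSeq and positions from GENCODE 29 (GRCh38).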

Additional observations from a re-analysis of the deposited data

How the results depend on the processing

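The number of the 31 members called depended on the spread used. With the replicate block it was 2 for TNFα in DKD cells, 8 for TNFα in CTL cells, 3 for DKD over CTL untreated and 10 with TNFα, against 0, 1, 1 and 2 without it. In the same order the block called 7.67%, 12.6%, 16.5% and 19.4% of all genes, against 1.79%, 2.62%, 4.98% and 6.24% without it. DESeq2 gave 1, 3 and 6 for TNFα in DKD cells, TNFα in CTL cells and DKD over CTL with TNFα, and limma voom gave 2, 6, 3 and 4 in the order above. From libraries numbered 2 and 3 alone the number was 6 for TNFα in CTL cells and 3 for DKD over CTL untreated, and without both DKD libraries numbered 1 it was 4 for TNFα in CTL cells. With no filter on low counts it was 0 for TNFα in CTL cells. The cause was not tested. For the alternatives other than the block the share of all genes called is not given here. Their numbers are therefore not read as results about the members. Leaving out 1 library gave 0 to 0 for TNFα in DKD cells, 0 to 1 for TNFα in CTL cells, 0 to 1 for DKD over CTL untreated, 1 to 4 with TNFα (4 without DKD untreated library 1), and 0 to 0 for the interaction, which stayed at 0 in every alternative run. RLE size factors and fits of only the 2 groups compared gave numbers within 1.5 times the main ones. Over single genes, 2829 of the values under alternatives kept their direction and their side of the threshold, 56 passed newly, 15 no longer passed, and 268 that were not called changed sign. No called value changed sign. RLE factors moved the median of all genes by at most 0.0106 (log2). The block changed no call of a member other than those given with the results. The 3 libraries per group set the precision.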

Other observations

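Cell cycle genes that p53 is known to repress through p21 and the DREAM complex were read from a list of 25, all tested. With TNFα, 24 of the 25 had a log2 fold change below 0 in each line, with a median of -0.19 in DKD cells and -0.39 in CTL cells, against medians near 0 over all genes. Thus 4% were above 0 in each line, against 48.3% of all genes in DKD and 50.2% in CTL cells. CDC25C, a phosphatase gene of mitotic entry, was the 1 gene called, in CTL cells (-0.61, adjusted p = 0.0216, or 4% of the list against 2.62% of all genes). In DKD cells none was called by edgeR (2 at an unadjusted p under 0.05, which 10.1% of all genes reached). With the replicate block 1 was lower in DKD cells (4%) and 3 in CTL cells (12%), and none was higher. The block called 7.67% of all genes in DKD cells (2.13% lower) and 12.6% in CTL cells (4.7% lower). All 25 had an interaction estimate above 0 (median 0.17), as had 49.7% of all genes. None of the 25 passed the test of the interaction by edgeR, which 0 of all 16118 genes passed. At an unadjusted p under 0.05 there were 0 of the 25, against 1.14% of all genes. These genes are not independent replicates, and no library was left out for this list, so a shared shift in a single library was not tested. Between the untreated lines, UBE2C (-0.98, adjusted p = 0.0423) and MKI67 (-0.73, adjusted p = 0.0214), both genes of dividing cells, were lower in DKD cells (8% of the list, against 4.98% of all genes). With TNFα, CDC25C was higher in DKD than in CTL cells (0.46, adjusted p = 0.0433; 4% of the list, against 6.24% of all genes). These comparisons share libraries.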
